A study of Mus musculus with 6 samples.

Results

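The genes described here are 10 genes of the meninges and of fibroblast matrix, taken as a named list: Col1a1, Col1a2, Col3a1, Fmod, Dcn, Lum, Ogn, Slc6a13, Aldh1a2 and Igf2. All 10 had at least 1 Affymetrix probe set whose annotation gave that gene symbol alone, out of 18193 genes with such a probe set, and together they had 22 probe sets. Each gene was represented by its brightest probe set on average, and the others served as a check. Of the 10 genes, 9 passed the filter on dim genes (above the array median on at least 2 arrays) and were tested among 11743 genes. Col1a1 lay below the median on all 6 arrays and is described without a test.

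RNA came from the hippocampus of male DBA/2 mice, which were housed singly and took up venlafaxine, a serotonin and noradrenaline reuptake inhibitor, with their drinking water for 30 days. The control group got no drug (0), the low dose group 30 mg/kg and the high dose group 100 mg/kg daily, with 10 animals in each. Each group gave 1 left and 1 right pool of hippocampal RNA, hybridized to 1 array each, so n = 2 arrays per group. Control 2 and high dose 2 were hybridized later than the remaining 4 arrays, which share a first date. Control 1, low dose 1 and high dose 2 held right pools, whereas control 2, low dose 2 and high dose 1 held left ones. Within either date a high dose array thus has the opposite side to its control, and within either side the opposite date. The pools mix animals, the labels do not say that left and right pools came from separate animals, and p-values measure only the spread between pools, which may be technical. The RNA integrity number (RIN) was 8.7 and 7.9 for the control arrays, 9.1 and 8.9 for the low dose arrays, and 8.5 and 8.2 for the high dose arrays. All 14 hippocampal neuron markers lay above the median on all 6 arrays. With 6 arrays, precision is limited by their number.

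The meninges are the membranes that wrap the brain, and the pia, their innermost layer, follows its surface and its vessels inward. Their fibroblasts secrete fibrillar collagens, which assemble into fibrils, and small leucine-rich proteoglycans, which bind those fibrils and set their spacing and thickness. The leptomeninges also carry transporters between cerebrospinal fluid and brain, make retinoic acid, which acts on nearby cells through nuclear receptors, and secrete growth factors. Such cells are a small part of a dissected hippocampus, and how much membrane stays on the tissue depends on the dissection. In pooled tissue RNA, fewer cells of a type and less RNA per cell cannot be told apart.

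The sequences just before the annotated start are shown for Col1a2, Col3a1 and Fmod, the matrix genes with unadjusted p under 0.05 at the high dose. They are from RefSeq on GRCm38.p6, plus strand, read 5′ to 3′, 140 bases each and ending at the base before the start. Capitals mark CCAAT and TATAAA, both searched on both strands. CCAAT is known to bind the factor NF-Y in the type I collagen promoters. TATAAA was marked by its letters at any distance from the start, so a match need not be a core promoter element.
Col1a2, chr6:4505478-4505617: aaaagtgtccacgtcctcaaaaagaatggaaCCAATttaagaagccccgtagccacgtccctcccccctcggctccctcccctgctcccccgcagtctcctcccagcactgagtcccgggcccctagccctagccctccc
Col3a1, chr1:45311398-45311537: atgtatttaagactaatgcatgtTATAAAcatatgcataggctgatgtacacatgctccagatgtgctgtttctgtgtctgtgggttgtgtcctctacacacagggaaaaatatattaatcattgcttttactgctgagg
Fmod, chr1:134037114-134037253: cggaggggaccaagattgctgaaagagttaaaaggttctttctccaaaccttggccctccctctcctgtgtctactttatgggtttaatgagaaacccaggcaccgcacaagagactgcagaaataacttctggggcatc

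The CCAAT of Col1a2 began 109 bases before the start and the TATAAA of Col3a1 117 bases before it, while the Fmod stretch held neither. The GC content was 62.9% for Col1a2, 37.9% for Col3a1 and 48.6% for Fmod. The table held 12 promoters of 7 of the 10 genes, namely Col1a2, Col3a1, Fmod, Ogn, Slc6a13, Aldh1a2 and Igf2. In the 250 bases before the start, CCAAT was in 4 of the 12 promoters, TATAAA in 2 and GGGCGG, the GC box, in 4. Of all 32851 promoters in the table, 33.8% held CCAAT, 12.4% TATAAA and 32.7% GGGCGG in the same window. These matches describe letters in the reference and are no sites shown by these data.

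Among the fibrillar collagens, Col1a2 and Col3a1 were measured well above the filter. Col1a2 encodes a chain of type I collagen, the main collagen of fibrous tissue, and had log2 levels of 9.14 and 9.03 on control 1 and 2, 8.94 and 9.27 on low dose 1 and 2, and 9.29 and 9.37 on high dose 1 and 2. Both high dose arrays stood above all the others, and the low dose arrays lay on either side of the controls. Col3a1 encodes type III collagen, which forms fine fibrils in soft tissue, and had 8.33 and 8.12 on the control arrays, 8.34 and 8.41 on the low dose arrays, and 8.62 and 8.46 on the high dose arrays. The 3 dose groups of Col3a1 did not overlap and lay in the order of the dose, but low dose 1 was only 0.014 above control 1. How many of all tested genes had this order was not counted. Col1a1, the other chain of type I collagen, had 7.53 and 7.46 on the control arrays, 7.60 and 7.54 on the low dose arrays, and 7.60 and 7.52 on the high dose arrays, a range of 0.14 that lies below the array medians.

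The small leucine-rich proteoglycans were Fmod, Dcn, Lum and Ogn. Fmod encodes fibromodulin, a proteoglycan that binds collagen fibrils, and had 9.02 and 8.73 on the control arrays, 8.65 and 9.37 on the low dose arrays, and 9.32 and 9.15 on the high dose arrays. The lowest and the highest of the 6 levels of Fmod were thus both in low dose pools, the right and the left one. Lum, which encodes lumican, another binder of collagen fibrils, had 8.78 and 8.59 on the control arrays, 8.79 and 8.99 on the low dose arrays, and 8.82 and 8.92 on the high dose arrays. Ogn, the gene of osteoglycin (mimecan), had 8.70 and 8.33 on the control arrays, 8.40 and 8.85 on the low dose arrays, and 8.65 and 8.72 on the high dose arrays. Control 2 was the lowest array for both Lum and Ogn and low dose 2 the highest.

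Dcn, the gene of decorin, which coats collagen fibrils and binds TGF-beta, went its own way. Its levels were 10.92 and 11.25 on the control arrays, 10.63 and 10.95 on the low dose arrays, and 11.00 and 11.32 on the high dose arrays. The 2 arrays of the later date were the highest, and low dose 1 was the lowest.

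The other members are a transporter, an enzyme and a growth factor. Slc6a13 encodes GAT2, a GABA transporter found in leptomeninges, and had 8.24 and 8.22 on the control arrays, 8.21 and 8.34 on the low dose arrays, and 8.35 and 8.35 on the high dose arrays; its range of 0.14 was narrower than that of 90.1% of tested genes. Aldh1a2, whose product makes retinoic acid from retinal, had 8.16 and 7.68 on the control arrays, 7.93 and 8.18 on the low dose arrays, and 8.05 and 7.93 on the high dose arrays. Its level was below the array median on control 2 and above it on the other 5 arrays. Igf2, an imprinted growth factor gene active in leptomeninges and choroid plexus, had 10.44 and 9.82 on the control arrays, 10.41 and 10.71 on the low dose arrays, and 10.30 and 10.51 on the high dose arrays. Igf2 had the widest range of the 9 tested genes, 0.89, and 0.204% of all tested genes had a wider one. The median range was 0.50 for the 9 tested members and 0.25 for all tested genes.

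**Figure D1:**
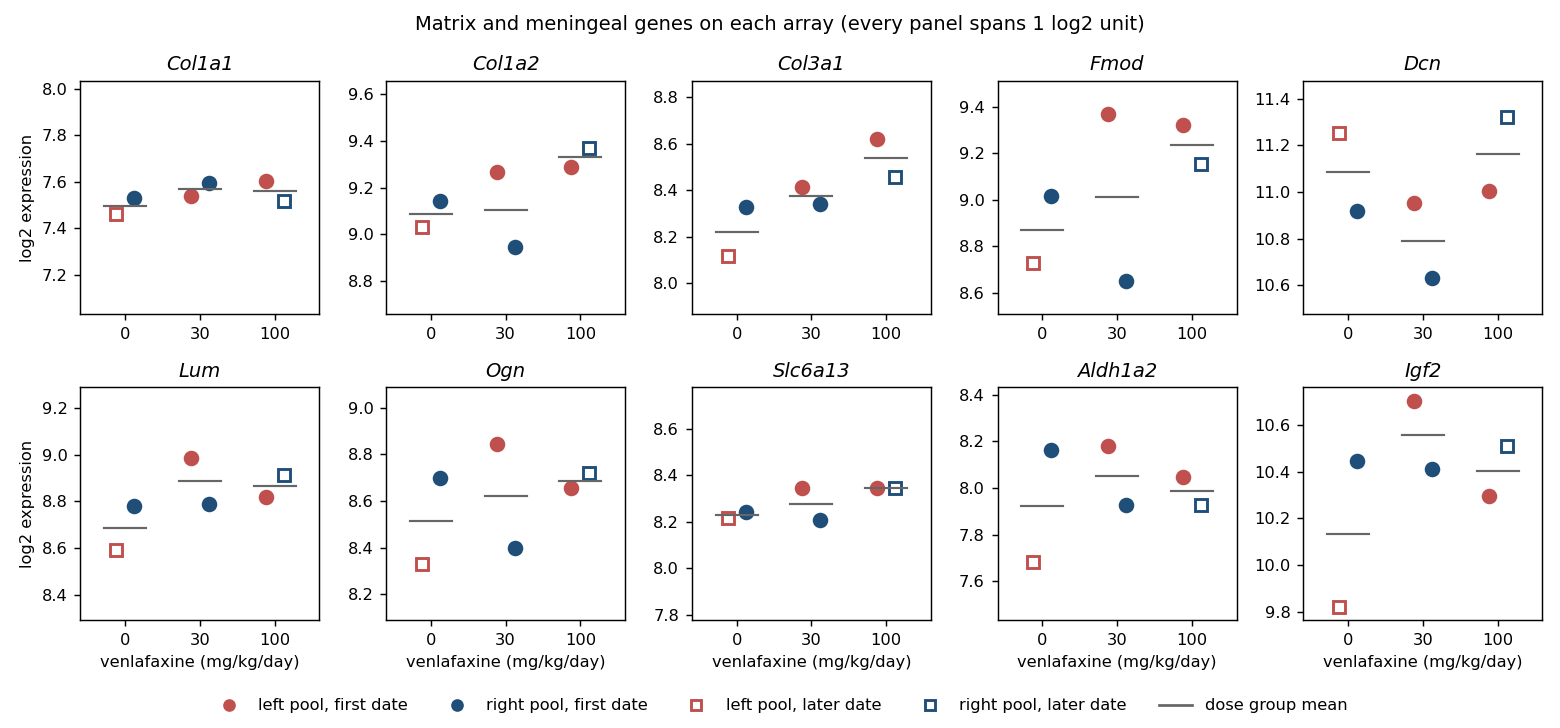
Log2 expression (y axis) of each of the 10 genes on each array against the daily venlafaxine dose in mg per kg (x axis), with left and right pools in different colours, later-date arrays as open squares and the mean of each dose group as a line. Every panel spans 1 log2 unit; the later-date control is the lowest point for Igf2, Lum, Ogn, Aldh1a2 and Col3a1, while for Dcn both later-date arrays are the highest.

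The extreme levels fell on few of the arrays. Of the 9 tested members, 5 had their lowest level on control 2 and 4 on low dose 1, and 5 had their highest on low dose 2, 2 on high dose 1 and 2 on high dose 2. Averaged over the 9, the deviation from each gene's mean was 0.0073 on control 1, -0.21 on control 2, -0.15 on low dose 1, 0.16 on low dose 2, 0.082 on high dose 1 and 0.12 on high dose 2. The means over all tested genes were 0.058, -0.059, -0.0088, 0.080, -0.033 and -0.037 in the same order of arrays. The members thus lay lower than the average gene on both control arrays and on low dose 1, and higher on low dose 2 and both high dose arrays.

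Over the 6 arrays, which share dates and sides, the 36 pairs of tested members had a median Pearson correlation of 0.68. Dcn was then set apart in view of its levels described above. The 28 pairs without Dcn had a median Pearson correlation of 0.74, between 0.43 and 0.95, with the highest for Col1a2 and Slc6a13 (0.95) and for Lum and Igf2 (0.94). The 8 pairs with Dcn had a median of -0.0065, from -0.42 with Aldh1a2 to 0.54 with Col1a2. These correlations describe 6 arrays and carry no test. No such median was taken over other genes, and the mean of all tested genes was also lowest on control 2 (-0.059) and highest on low dose 2 (0.080).

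The 6 tested genes outside the list most like the mean of the 9 members, by Pearson correlation over the 6 arrays among the 543 with a range of at least 0.5, were H1f2 (0.93), Mgp (0.92), Cebpd (0.83), Haghl (0.81), Islr (0.81) and Ptgds (0.80). Mgp encodes matrix Gla protein, an inhibitor of calcification, and H1f2 a linker histone. Islr and Ptgds, the gene of a prostaglandin D synthase that is abundant in leptomeninges, are also on the list of other meningeal markers used below. Mgp had log2 levels of 9.91 and 9.69 on the control arrays, 9.88 and 10.22 on the low dose arrays, and 9.97 and 10.15 on the high dose arrays.

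The comparison of the high dose with no drug asked which genes the higher dose altered. Of the 9 tested members, 0 passed the threshold (limma, two-sided, Benjamini-Hochberg adjusted p under 0.05), where 0.00852% of all tested genes did, and 3 had an unadjusted p under 0.05, where 2.76% of all tested genes did. All 9 had a higher mean at the high dose, and their median log2 fold change was 0.18, against a median of -0.030 over all tested genes, of which 35.9% lay above 0. Leaving out control 1 gave a members' median of 0.31 and leaving out control 2 gave 0.11. For 5 of the 9, namely Col1a2, Col3a1, Fmod, Lum and Slc6a13, both high dose arrays lay above both control arrays; 8.03% of all tested genes did so. The unadjusted p was 0.00698 for Col3a1, 0.0244 for Fmod and 0.0378 for Col1a2.

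Fmod averaged 9.24 ± 0.12 on the high dose arrays and 8.87 ± 0.20 on the control arrays (SD, n = 2 each), a log2 fold change of 0.36 (SE 0.15, limma adjusted p = 1.00). The 5 other probe sets of Fmod gave 0.11 to 0.37, and their correlations with the main one over the 6 arrays were 0.90 to 0.95. Col3a1 averaged 8.54 ± 0.11 at the high dose and 8.22 ± 0.15 in the controls (SD, n = 2 each), a log2 fold change of 0.32 (SE 0.11, limma adjusted p = 1.00). Col1a2 averaged 9.33 ± 0.058 at the high dose and 9.09 ± 0.078 in the controls (SD, n = 2 each), a log2 fold change of 0.25 (SE 0.11, limma adjusted p = 1.00), and its 2 other probe sets, below the array median on all 6 arrays, gave 0.27 and 0.020. Igf2 had 0.27, Lum 0.18, Ogn 0.17, Slc6a13 0.12, Dcn 0.077 and Aldh1a2 0.066. With the hybridization date as a term, Fmod passed (limma adjusted p = 0.0270), as did 44 of 11743 genes in that fit, where all genes shared 1 spread. Fmod missed the threshold with side and date as terms (adjusted p = 0.302) and with the replicate number as a block (0.322). Without control 1, Fmod (0.51, adjusted p = 0.0148) and Igf2 (0.59, adjusted p = 0.00211) were among 25 of 11743 genes past the threshold; 1 control array then stood alone and was assumed to vary like the other groups. Without control 2, 6 of the 9 members had a higher mean at the high dose.

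**Figure D2:**
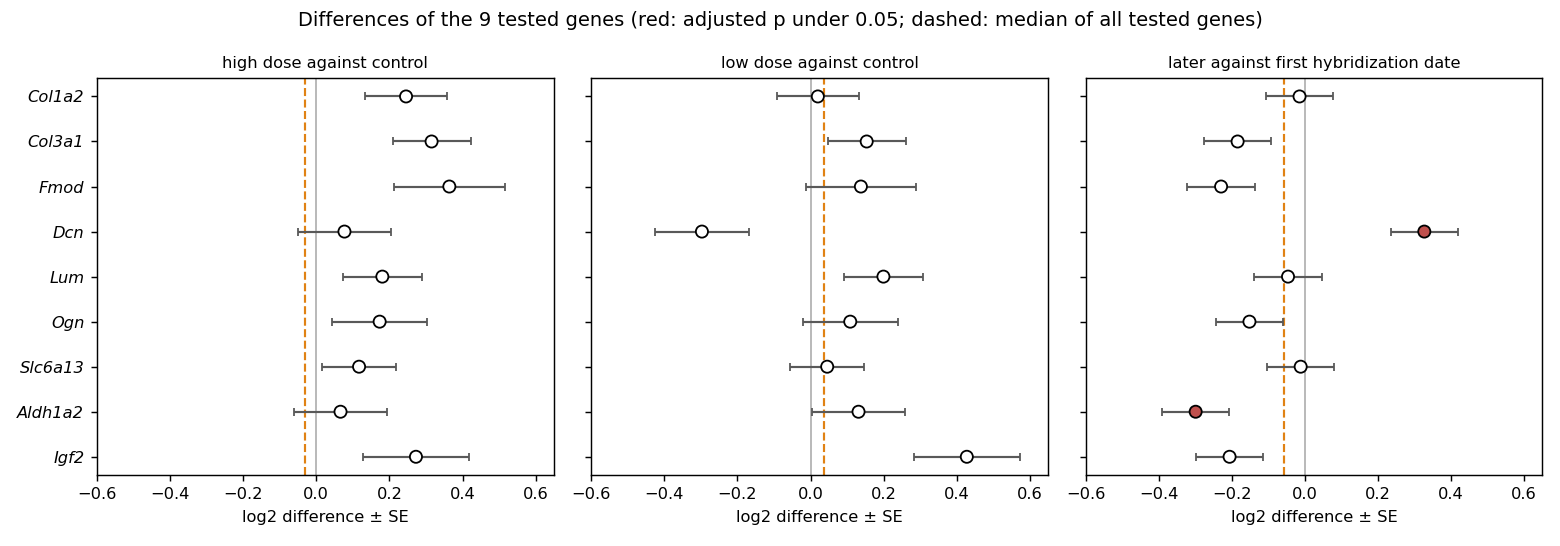
Log2 differences (x axis, points, with the standard error as bars) of the 9 tested genes in the limma fits for high dose against control, low dose against control and later against first hybridization date. At the high dose all 9 points lie right of 0, between 0.066 and 0.36, with none past the threshold; by date Dcn (0.33) and Aldh1a2 (-0.30) passed. The dashed lines mark the median of all tested genes.

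Paired by hybridization date, the members' median difference between high dose and control was 0.34 on the later date, with 9 of 9 above 0, and 0.085 on the first date, with 6 of 9 above 0. Over all tested genes the medians were 0.023 on the later date and -0.085 on the first. Fmod differed by 0.42 on the later date and 0.30 on the first, Col3a1 by 0.34 and 0.29, and Col1a2 by 0.34 and 0.15. Lum (0.32 and 0.039), Slc6a13 (0.13 and 0.11) and Dcn (0.069 and 0.085) also lay above 0 within either date. For all of these but Dcn, this follows from both high dose arrays lying above both control arrays. Igf2 had 0.69 on the later date and -0.15 on the first, Ogn 0.39 and -0.044, and Aldh1a2 0.25 and -0.11. Paired by side, the members' median was 0.32 on the left, where the control is of the later date, and 0.13 on the right, where the high dose array is. Dcn reversed between the sides, with -0.25 on the left and 0.40 on the right, which both set the later-date array higher. Each of these values is 1 array less another.

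The difference between the dates was itself tested over all genes, with the spread taken from the 2 low dose arrays and shared by all genes. Each dose and date is 1 array here. The Igf2 difference between high dose and control was 0.84 larger on the later date than on the first (SE 0.18, limma adjusted p = 0.00430), and 20 of 11743 genes passed. With trend and robust settings Igf2 did not pass (adjusted p = 0.141), nor did it with the mean of its probe sets (0.34, 0.869). The other 8 members did not pass, with unadjusted p under 0.05 for Ogn (0.43) and Aldh1a2 (0.36). In these 4 arrays a change of the dose effect with date cannot be told apart from a left to right difference, since on the first date the high dose pool was left and the control right, and on the later date the reverse. The second Igf2 probe set lay below the array median on all 6 arrays.

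**Figure D3:**
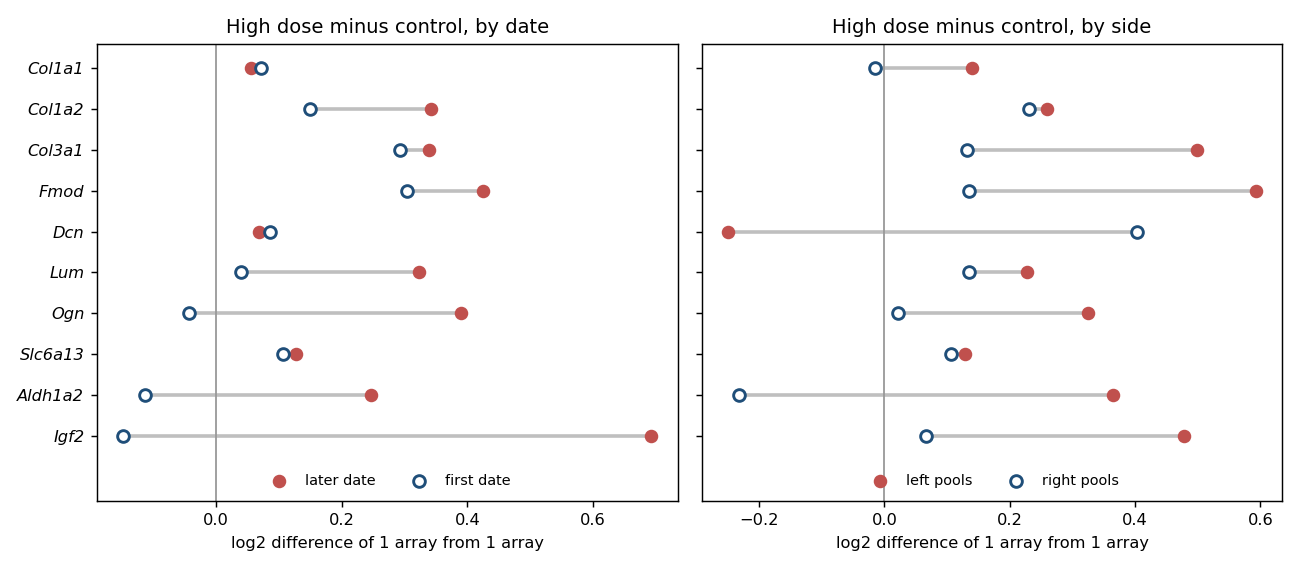
Log2 difference of a high dose array from a control array (x axis) for each of the 10 genes, paired by hybridization date in the left panel and by side in the right panel; each point is 1 array less another. Col1a2, Col3a1, Fmod, Lum and Slc6a13 lie above 0 in all 4 pairings, which follows from both their high dose arrays lying above both control arrays. Igf2 lies at 0.69 on the later date and -0.15 on the first.

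The comparison of the low dose with no drug shares its control arrays with the comparison above. Of the 9 members 0 passed (limma adjusted p = 1.00 for each), where 0.0426% of all tested genes did (0.0341% as lower), and 2 had an unadjusted p under 0.05, Igf2 and Dcn, where 3.32% of all tested genes did. The median log2 fold change was 0.13, against 0.038 over all tested genes, and 8 of 9 members lay above 0, as did 67.6% of all tested genes. For Col3a1 and Lum both low dose arrays lay above both controls, which 13.4% of all tested genes did; for 0 members both lay below, as for 7.78% of all tested genes. Igf2 averaged 10.56 ± 0.21 on the low dose arrays and 10.13 ± 0.44 on the control arrays (SD, n = 2 each), a log2 fold change of 0.43 (SE 0.14), and with the replicate number as a block it passed (adjusted p = 0.0419), as did 32 of 11743 genes. The choroid plexus markers, whose tissue also makes Igf2, had a median of 0.24 in the same comparison, with 16 of 16 above 0, 7 with both low dose arrays above both controls and 0 past the threshold (limma; 6 with an unadjusted p under 0.05). Dcn averaged 10.79 ± 0.23 on the low dose arrays and 11.09 ± 0.24 on the control arrays (SD, n = 2 each), with a log2 fold change of -0.30 (SE 0.13). Fmod had 0.14, although its low dose arrays differed by 0.72 from each other.

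Against the first date's control alone, which shares its date with both low dose arrays, the members' median was -0.0072 and 4 of 9 lay above 0. Over all tested genes the median was -0.016, with 41.9% above 0. There Igf2 had 0.11 and Dcn -0.13. Without control 1 the median was 0.28 and Igf2 (0.74, limma adjusted p = 4.62e-07), Dcn (-0.46, 0.00601) and Aldh1a2 (0.37, 0.0461) passed, as did 546 of 11743 genes; the control was then the later-date array alone, assumed to vary like the other groups, while both low dose arrays are of the first date, and all genes shared 1 spread. By contrast, without low dose 2 the median was -0.023. The value at the low dose thus differed with which control array was used. On the left the members' median was 0.39 and on the right -0.20, against 0.14 and -0.065 over all tested genes.

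High dose and low dose were also set against each other. Of the 9 members 0 passed, as did 0% of all tested genes, and 1, Dcn, had an unadjusted p under 0.05, where 6.21% of all tested genes did. Dcn averaged 11.16 ± 0.23 on the high dose arrays and 10.79 ± 0.23 on the low dose arrays (SD, n = 2 each), a log2 difference of 0.37 (SE 0.13, limma adjusted p = 0.763). It passed without control 1 or control 2 (0.37 in both) and without high dose 1 (0.53). In these fits 1 array stood alone in a group and all genes shared 1 spread. Without 1 array the Dcn difference ran from 0.21 to 0.54. With the date, the side, RIN or the replicate number as a term 0 members passed. Both low dose arrays are of the first date, and by date Dcn was 0.33 higher on the later arrays. The part of the date in the Dcn difference was not tested. For Col1a2 (0.23), Col3a1 (0.16), Dcn and Slc6a13 (0.072) both high dose arrays lay above both low dose arrays, which 3.98% of all tested genes did; for 0 members both lay below, as for 37.3% of all tested genes. The members' median was 0.072, with 6 of 9 above 0, and that of all tested genes -0.066, with 22.8% above 0. Without low dose 1 the members' median was -0.12.

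Left and right pools were compared with the dose group as a term. Of the 9 members 0 passed (limma) and 0 had an unadjusted p under 0.05, where 0% and 0.341% of all tested genes did. The members' differences, left minus right, ran from -0.18 to 0.20 with a median of 0.0086, and 45.9% of all tested genes lay above 0. The side difference was not the same in the dose groups, for the members or for all tested genes. The members' median, left minus right, was -0.21 in the controls, 0.29 at the low dose and -0.065 at the high dose. In that order 1, 9 and 4 of 9 members were higher on the left. Over all tested genes the medians were -0.11, 0.094 and 0.0042, with 21.6%, 83.8% and 51.5% higher on the left. Only the low dose pools share a date. The choroid plexus markers had a median of -0.17, left minus right, with 0 of 16 above 0, 0 past the threshold (limma) and 6 with an unadjusted p under 0.05. Their side difference also varied with the dose group. Its median was -0.28 in the controls, 0.16 at the low dose and -0.44 at the high dose. In that order 1, 15 and 0 of 16 were higher on the left.

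The later arrays were set against the first-date arrays with the dose group as a term, so that the value rests on control and high dose. Of the 9 members 1 was higher (limma adjusted p under 0.05), where 1.23% of all tested genes were, and 1 was lower, where 5.73% were; in either direction 6.97% of all tested genes passed. Dcn averaged 11.29 on the later arrays of control and high dose and 10.96 on their first-date arrays, a log2 difference of 0.33 (SE 0.092, limma adjusted p = 0.0108), and both later arrays lay above all 4 first-date arrays, which 5.19% of all tested genes did. Aldh1a2 averaged 7.81 on the later arrays of control and high dose and 8.10 on their first-date arrays, a difference of -0.30 (SE 0.092, limma adjusted p = 0.0237). All genes shared 1 spread in this fit. Fmod had -0.23, Igf2 -0.21, Col3a1 -0.18 and Ogn -0.15, while Lum, Col1a2 and Slc6a13 lay between -0.046 and -0.011. The members' median was -0.15, with 1 of 9 above 0, and that of all tested genes -0.057, with 31.1% above 0. For 0 members did both later arrays lie below all 4 first-date arrays, which they did for 30.1% of all tested genes.

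The later arrays also had the lowest RIN, 8.2 for high dose 2 and 7.9 for control 2, so date and RNA integrity moved together. With RIN as a covariate neither gene passed, with 0.099 for Dcn and -0.17 for Aldh1a2. With side as a term neither passed either (limma adjusted p = 0.0776 for Dcn and 0.126 for Aldh1a2). Dcn also missed the threshold without either control array (adjusted p = 0.357) or either high dose array (0.102), and Aldh1a2 without either control array (-0.12, 0.999). The second, dimmer Dcn probe set differed by -0.0027 between the dates.

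The rest of the matrix machinery was described from gene lists. Of the 15 tested collagen chains outside the list 0 passed at the high dose or the low dose, with a median of 0.070 at the high dose. The 3 brightest had log2 fold changes at the high dose of 0.057 (Col25a1, a neuronal transmembrane collagen), -0.18 (Col4a1) and 0.054 (Col4a2), the last 2 being chains of basement membrane. The 14 tested genes of collagen processing, among them Ppib (0.11), Sparc (0.010) and P4hb (-0.14), had a median of -0.027 at the high dose. Of the other small leucine-rich proteoglycans 3 of 11 were tested, with 0.20 for Bgn (biglycan), 0.12 for Prelp and -0.029 for Podn. The 12 tested other matrix proteins had a median of 0.039, with -0.034 for Fn1 (fibronectin), -0.0055 for Vcan (versican) and 0.020 for Efemp1. None of these lists had a gene past the threshold in either dose comparison, and none had one in high dose against low dose.

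By date the same lists held calls, where 6.97% of all tested genes passed, 5.73% as lower and 1.23% as higher. Col11a1 (-0.35) and Pcolce (-0.32), an enhancer of procollagen cleavage, were lower on the later arrays, as were Fn1 (-0.27) and Efemp1 (-0.35), and Sparc, a collagen-binding protein, was higher (0.30; limma adjusted p between 0.00449 and 0.0458 for these 5). All 12 other matrix proteins lay below 0 by date, while 31.1% of all tested genes lay above 0. Of the 15 tested collagen chains 8 lay above 0, with a median of 0.0020. Of the 14 tested collagen processing genes 2 lay above 0, and of the 3 other proteoglycans 0 did.

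The signalling partners of single members did not pass at either dose. The 11 tested genes of retinoic acid synthesis, binding and breakdown had a median of -0.061 at the high dose and 0.029 at the low dose, with high dose values of 0.063 for Aldh1a1, another retinal dehydrogenase, -0.061 for the receptor gene Rxrb and -0.068 for Rdh10, whose product makes retinal. The 11 tested genes of the insulin-like growth factor axis had medians of -0.034 and -0.014, with high dose values of -0.098 for the binding protein gene Igfbp5 and -0.096 for the receptor gene Igf1r. Igfbp4, another binding protein gene, had -0.029 at the high dose and 0.34 at the low dose (limma unadjusted p = 0.0207). Its low dose arrays (11.31 and 11.30) lay above both controls, as for 13.4% of all tested genes. Control 1, of the same date, was close at 11.28, and control 2, of the later date, was at 10.64. Igfbp4 had -0.37 at the high dose against the low dose (unadjusted p = 0.0129), and it was lower on the later date (-0.39, limma adjusted p = 0.00144). The 4 tested genes listed as GABA and taurine transporters had medians of 0.0056 at the high dose and 0.088 at the low dose. Their list also holds Slc6a8, which encodes a creatine transporter. High dose values were -0.039 for Slc6a6, -0.10 for Slc6a8 and 0.050 for Slc32a1. The 11 tested TGF-beta genes had medians of -0.0026 and 0.046, with high dose values of -0.074 for Skil, -0.0026 for Smad4 and -0.14 for Smad3.

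Markers of neighbouring tissues were set beside the members. Of 28 other meningeal markers 19 were tested; Foxc2, Foxd1, Twist1, Crabp2, Wnt6, Cdh1, Slc22a2, Slc47a1 and Slc6a12 did not pass the filter. The mean deviation of the 19 was 0.020 and -0.15 on the control arrays, -0.042 and 0.11 on the low dose arrays, and 0.056 and -0.0017 on the high dose arrays, and control 2 was the lowest and low dose 2 the highest, as for the members and for all tested genes (-0.059 and 0.080). At the high dose 0 of the 19 passed (limma), 1 had an unadjusted p under 0.05, 15 lay above 0 and the median was 0.10. High dose and control levels did not overlap in 6 of the 19, all with the high dose higher. Of all tested genes 8.03% were apart in that direction. Ptgds had a high dose value of 0.19, Ccn3 -0.038 and Pdgfra -0.095. At the low dose the median was 0.12. By date 16 of the 19 lay below 0 and 4 passed as lower, where 5.73% of all tested genes did, namely Ptgds (-0.49), Slc6a20a (-0.43), Islr (-0.31) and Gjb6 (-0.28; limma adjusted p between 1.7e-05 and 0.0391).

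Some of these markers, such as Pdgfra and Gjb6, are also expressed by cells of the hippocampus itself, so their mean is no measure of meninges alone. After that mean was subtracted on each array, the members' median difference between high dose and control was 0.091, with 7 of 9 above 0, and 0.033 between low dose and control, with 6 of 9 above 0. Fmod had 0.27, Col3a1 0.23, Igf2 0.18 and Col1a2 0.16 at the high dose, while Dcn had -0.013 and Aldh1a2 -0.024. The part of unequal meninges in the members' values was not tested.

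Choroid plexus markers, whose tissue lies next to the hippocampus and also makes Igf2, had 16 of 19 tested. Their mean deviation was -0.011 and -0.27 on the control arrays, 0.018 and 0.18 on the low dose arrays, and -0.16 and 0.25 on the high dose arrays. At the high dose 0 passed (limma), 3 had an unadjusted p under 0.05, all 16 lay above 0 and the median was 0.19, with 0.32 for Clic6, 0.14 for Kcnj13 and 0.059 for Ttr; Tmem72 did not pass the filter. By date Ttr passed as higher on the later arrays (0.33, limma adjusted p = 0.0100), as did 1.23% of all tested genes. The list's median difference between high dose and control was 0.53 on the later date and -0.12 on the first. Igf2 likewise had a positive value on the later date and a negative one on the first, and the part of choroid plexus in its values was not tested.

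The 8 tested ependymal markers had a median of 0.18 at the high dose, with 8 of 8 above 0, 7 of 8 with both high dose arrays above both controls, where 8.03% of all tested genes had this, and 0 past the threshold (limma; 2 with an unadjusted p under 0.05). Their mean deviations were 0.060 and 0.10 on the high dose arrays and -0.046 and -0.13 on the control arrays, and Foxj1 did not pass the filter. Tm4sf1 had 0.11, Rarres2 0.076 and Rsph1 0.089. Endothelial markers had a median of 0.033 (14 tested of 18) and mural cell markers of 0.044 (12 tested of 15), with 0 past the threshold at the high dose and 0 with an unadjusted p under 0.05 in both lists. High dose values were -0.040 for Itm2a, 0.034 for Slc2a1 and 0.058 for Slco1c1 among the endothelial markers, and 0.055 for Rgs5, 0.14 for Acta2 and 0.073 for Vtn among the mural ones. Vtn (-0.32) and Pdgfrb (-0.27) were lower on the later date, as were the hippocampal neuron markers Neurod6 (-0.51) and Wfs1 (-0.44). These 4 had limma adjusted p between 5.15e-06 and 0.0446, and 5.73% of all tested genes passed as lower by date. The neuron markers Camk2a (-0.081), Nptx1 (-0.032) and Pcp4 (-0.067) did not pass at the high dose. Of the border macrophage markers 0 of 7 passed the filter, and of the red blood cell markers 2 of 7 did, with 0.11 for Bpgm and -0.014 for Hbb-b2. The part of these tissues in the members' values was not tested.

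**Figure D4:**
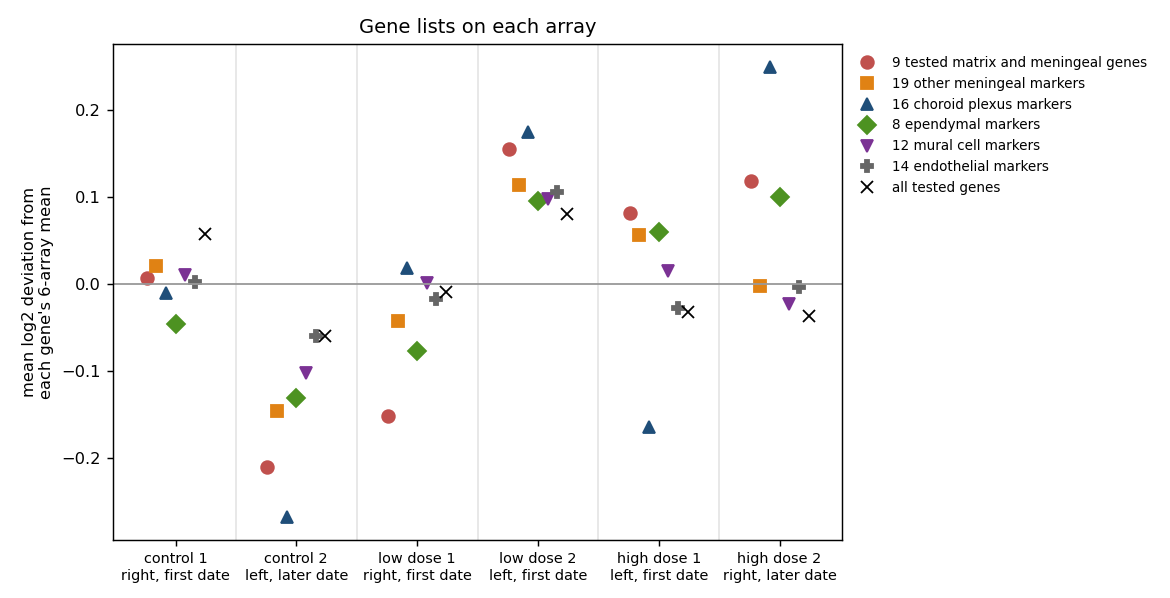
Mean log2 deviation from each gene's 6-array mean (y axis) on each array (x axis, with side and date) for the 9 tested matrix and meningeal genes, 5 lists of neighbouring tissue markers and all tested genes. All 7 series, all tested genes included, are at their lowest on control 2, and the choroid plexus markers differ most between the high dose arrays, at -0.16 and 0.25.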

How the data were processed

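The authors deposited 1 log2 value for each of 45101 probe sets and 6 arrays, made with RMA in R 3.0.1, per the submitters' processing notes. RMA settings and genome build were not given in the sources used here. That the scale is log2 follows from the range of the deposited values, 6.10 to 15.31. Amplification started from 100 ng of total RNA, per the labels' protocols.

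Probe sets were named by the platform annotation, with symbols updated by Entrez identifier (34741 of 34945 probe sets with 1 symbol); 932 with several symbols were not named. Dim genes were removed as stated (medians without 64 control probe sets). Fits used limma 3.58.1 in R 4.3.3 (lmFit, eBayes) on all 6 arrays, with 1 mean per dose group; side and date were added to that. The fits were tested on simulated data. No 2 arrays held identical values.

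The members, lists and tests were chosen with earlier results of these data known. Named from each list are the 3 tested genes with the highest mean level and any past the threshold, and the 6 most similar genes. For control and high dose the labels tie the replicate number to the hybridization date; replicate 2 minus replicate 1, taken gene by gene, correlated at 0.540 between high dose and control, 0.0765 between low dose and control and 0.133 between high and low dose. Alternatives covered further terms, arrays left out, filters, probe sets, scaling and the variance model.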

Additional observations from a re-analysis of the deposited data

Results flagged for a closer look

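The difference of Igf2 between high dose and control was 0.84 larger on the later date than on the first (limma adjusted p = 0.00430), which is why it is listed here: this test of the same contrast on both dates passed its threshold. It rests on 1 array per dose and date, with the spread taken from the 2 low dose arrays, and it did not pass with the mean of probe sets (0.34, adjusted p = 0.869) or with trend and robust settings (0.84, 0.141). The levels were 10.51 at the high dose and 9.82 in the control on the later date, and 10.30 at the high dose and 10.44 in the control on the first. Side changes with date in these 4 arrays, so date and side cannot be told apart. Groups of 2 arrays are too small for a search for single outlying arrays.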

How the results depend on the processing

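Each group holds 2 arrays, so 1 array can set a value. At the high dose the count of members past the threshold was 1 with the date as a term and 0 to 2 without 1 array; with the replicate block it stayed 0 (Fmod adjusted p = 0.322). The high dose median ran from 0.11 to 0.31 without 1 array. At the low dose it was 1 with the replicate block and 0 to 3 without 1 array, and the median ran from -0.023 to 0.28. For high against low dose the median was 0.22 with RIN as a covariate and -0.12 to 0.20 without 1 array, with 0 to 1 members past the threshold. By date the count was 1 with the stricter filter, the mean of probe sets, centring, quantile normalization, or trend and robust settings. It was 0 with side or RIN as a term. Without 1 array the medians ran from -0.21 to 0.065. With the replicate block the count was 1 (Fmod, -0.95) and the members' median was -0.34. That date value has low dose 2 minus low dose 1 subtracted (0.72 for Fmod), 2 pools that share a date but not a side. The alternatives for the Igf2 difference between dates, and for the count of members above 0, were chosen after seeing the data. The Igf2 difference missed the threshold with the mean of probe sets (0.34, adjusted p = 0.869) and with trend and robust settings (0.84, 0.141); its adjusted p over the alternatives ran from 7.58e-05 to 0.869. The count of members above 0 at the high dose was 6 to 9 without 1 array.

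Over all genes the high dose count was 1 and ran from 0 to 178 over the alternatives, the low dose count was 5 and ran from 0 to 546, that for high against low dose was 0 and ran from 0 to 152, and the date count was 818 and ran from 22 to 1363.

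Directions that turned: at the high dose, on the first date alone, Ogn (-0.044), Aldh1a2 (-0.11) and Igf2 (-0.15), and with the mean of probe sets Dcn (-0.054). Without 1 array Dcn ran from -0.090 to 0.24, Ogn from -0.011 to 0.36, Aldh1a2 from -0.17 to 0.31 and Igf2 from -0.040 to 0.59. At the low dose Aldh1a2 was -0.018 with date, or side and date, as terms. With RIN Col3a1 was -0.028, Dcn 0.092, Ogn -0.061 and Aldh1a2 -0.20. On the first date Col1a2 was -0.035, Fmod -0.0072, Ogn -0.076 and Aldh1a2 -0.11, and Col1a2 was -0.016 after centring and -0.017 after quantile normalization. Without 1 array Col1a2 ran from -0.14 to 0.18, Fmod from -0.22 to 0.50, Ogn from -0.11 to 0.33, Slc6a13 from -0.023 to 0.11 and Aldh1a2 from -0.11 to 0.37. By date, Lum was 0.058 and Igf2 0.30 with RIN, and Col1a2 0.018 with the mean of probe sets. After centring Col1a2 was 0.067, Lum 0.036 and Slc6a13 0.070, and after quantile normalization 0.055, 0.023 and 0.034. Without 1 array Col1a2 ran from -0.11 to 0.082, Lum from -0.19 to 0.096, Ogn from -0.37 to 0.065 and Igf2 from -0.63 to 0.21. The cause was not tested for any of these. Side on the first date alone leaves no spread and was not run.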
